A study of Rattus norvegicus with 3 samples.

Results

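The regions described here are strong promoters that hold a single DLX3 peak. They are peaks of H3K4me3 with a score of 1000 or more and a width under 4000 bp. Each shares at least 1 bp with exactly 1 DLX3 peak, and binding sites within a peak were not counted. The regions were chosen by the measured score and width of the mark and by the count of overlapping DLX3 peaks. There were 6775 of them among the 25094 H3K4me3 peaks (27.0%), and they held 6774 of the 69263 DLX3 peaks (9.78%). The peaks come from chromatin immunoprecipitation followed by sequencing (ChIP-seq) of the enamel organ, the epithelium that makes tooth enamel, dissected from the ever-growing lower incisors of rats. All 3 libraries, the input with no antibody, the DLX3 ChIP and the H3K4me3 ChIP, were from wild-type adults, and no treatment is named. The number, strain and sex of the animals are not given in the sources used here. Targets were taken from the sample titles, although the antibody entries of these libraries say anti-DLX4 and anti-H3K4me4. With 1 library per antibody no value has a replicate, so no test between libraries or animals was possible, and intervals below cover counting over peaks only.

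H3K4me3, the trimethylation of lysine 4 on histone H3, is carried by nucleosomes next to the start sites of active or poised genes and is widely used as a mark of promoters. DLX3 is a homeodomain transcription factor of the distal-less family, which binds DNA directly. It is expressed in ectodermal organs such as teeth and hair, and in the placenta. Mutations of DLX3 cause tricho-dento-osseous syndrome in humans, in which enamel is thin or poorly mineralised. A ChIP-seq peak is a stretch where reads from the precipitated DNA pile up. For H3K4me3 it spans the marked nucleosomes, and for a transcription factor it spans the site plus about the length of the sequenced fragments. Promoters are meant here by the mark alone, because no annotation of the rat build of these lists, rn5, was used. The regions are therefore given by position without gene names or sequence, and markers of the tissue were not analysed here.

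Among the 8367 H3K4me3 peaks with this score and width, 6775 held 1 DLX3 peak (81.0%, Wilson 95% interval 80.1 to 81.8%). A further 1190 held none (14.2%), 392 held 2 and 10 held 3. Over the whole H3K4me3 list 57.8% of peaks held exactly 1, and among the 14995 peaks under 4000 bp with a score under 1000 the share was 45.2%. The rule used these overlaps, so the shares describe the choice of regions. The share with exactly 1 DLX3 peak was 66.8% at mark scores from 1000 to under 1500, 77.2% from 1500 to under 2000, 86.1% from 2000 to under 3100, 91.6% at exactly 3100 and 88.9% above 3100. The share without DLX3 went the other way over these classes, through 28.1%, 18.7%, 9.58%, 2.44% and 5.75%, and the share with 2 or more stayed between 4.12% and 5.93%. Up to the score of 3100, stronger marks thus more often held a DLX3 peak, and the share holding several showed no such order. Strong marks under 4000 bp without DLX3 were narrower than the regions, with median widths of 2103.5 and 2365 bp. The shares by class were not matched on width.

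The marked peaks had a median score of 2271 (quartiles 1645 and 3100) and spanned a median of 2365 bp (quartiles 1903 and 2911 bp). A score of exactly 3100 was shared by 1577 of them (23.3%), and 201 scored higher, up to 3233. Scores are the authors' value for each peak and were compared only within a list. The shared value may be a ceiling, so regions at 3100 and above it cannot be ranked against each other. At the score limit, the region just inside had 1000.08 and held a DLX3 peak of 1205 bp with a score of 74.2 (chr8:6798692-6801186), and the peak just outside had 999.65 and held a DLX3 peak of 746 bp with a score of 117.7 (chr1:71238185-71239547). At the width limit, the region just inside spanned 3998 bp with a DLX3 score of 356 (chr8:70851748-70855745), and the peak just outside spanned 4000 bp with a DLX3 score of 370.2 (chr8:121283614-121287613).

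The DLX3 peaks in these regions mostly scored above the median of the DLX3 list. Their median score was 159 (interval of the median 156 to 163, quartiles 98.6 and 263, n = 6775 regions), against 92.3 over the whole DLX3 list, and the range ran from 50.02 to 2606. In the upper 10% of the DLX3 list by score, which begins at 283, stood 1476 of the 6774 DLX3 peaks (21.8%, Wilson 20.8 to 22.8%), where the background by construction is 10%. Above the median of the list, where the background is 50%, stood 5266 (77.7%). A score under 100 was found in 1745 regions (25.8%), and a score of 500 or more in 408 (6.02%). A strong promoter mark was thus accompanied by DLX3 peaks from the lowest scores listed to some of the highest.

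DLX3 score went up with mark score. The median DLX3 score was 113 at mark scores from 1000 to under 1500 (interval 109 to 119, n = 1273), 130.5 from 1500 to under 2000 (125 to 137, n = 1424), 158 from 2000 to under 3100 (152 to 163, n = 2300), 243 at exactly 3100 (234 to 253, n = 1577) and 199.7 above 3100 (172 to 233, n = 201). The intervals of the first 4 classes did not overlap. That of the last class lay under that of the regions at exactly 3100, and these 2 classes are not ranked by the strength of the mark. With both top classes together the median was 239.7 (n = 1778), 126.5 above that of the lowest class. The share of regions whose DLX3 peak stood in the upper 10% of the DLX3 list was 10.4%, 13.7%, 19.9%, 40.1% and 29.4% over the 5 classes, and the share with a DLX3 score under 100 was 41.5%, 33.8%, 24.2%, 9.51% and 13.9%. Spread within a class was wide all the same. At exactly 3100 the quartiles were 153 and 373, and the scores ran from 50.31 to 2606.

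**Figure D1:**
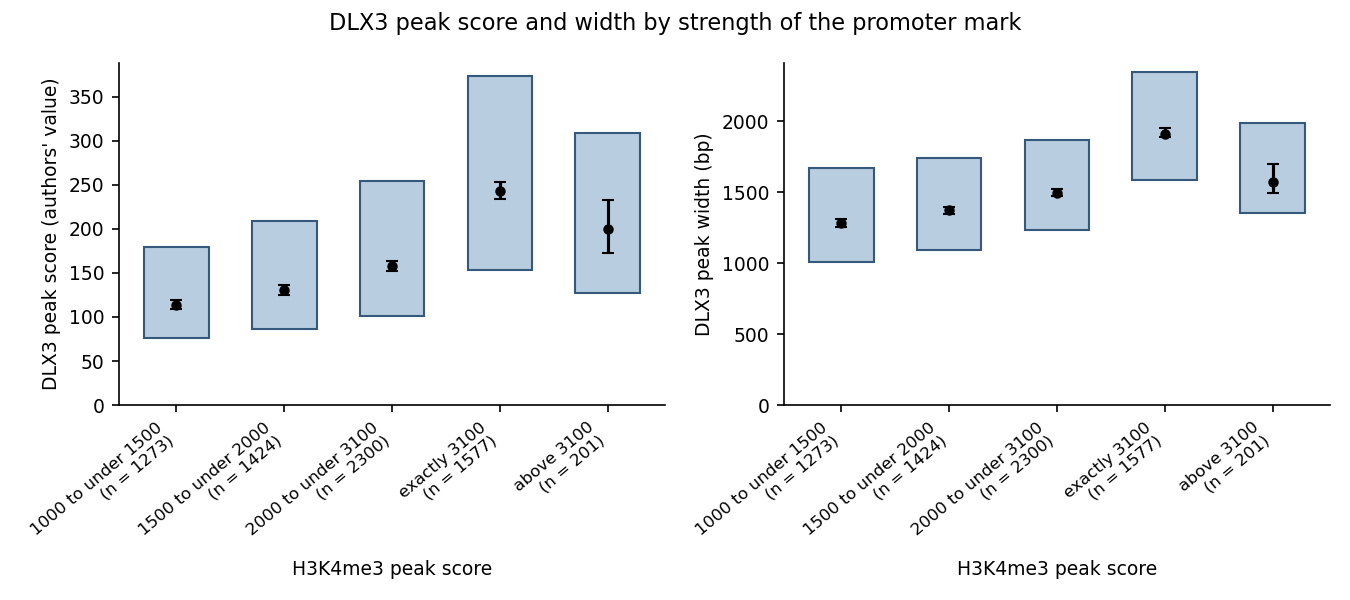
DLX3 peak score (left, authors' value) and DLX3 peak width in bp (right) in 5 classes of H3K4me3 score; boxes span the quartiles over regions, points are medians and bars their 95% intervals over peaks. Medians climb from 113 to 243 and from 1284 to 1911 bp over the first 4 classes and are lower, at 199.7 and 1573 bp, above 3100.

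Across the 6775 regions the rank correlation of mark score with DLX3 score was 0.34 (Spearman's rho), and over the 4997 regions under a mark score of 3100 it was 0.20. These are descriptions across sites that share 2 libraries, and a pair of peaks at one place can share mappability and base composition. Among the 6785 peaks under 4000 bp with a single DLX3 peak but a mark score under 1000, rho was -0.09. Their median DLX3 score was 116 (interval 113 to 119). The sign of the correlation thus differed between strong and weak marks, a difference that could not be tested without replicates.

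Width moved with both scores, so the trend was read again among peaks of like width. Among marked peaks under 1500 bp the median DLX3 score was 102 at mark scores from 1000 to under 1500 (interval 87.9 to 112) and 192 at 3100 or more (146 to 252). Among those of 2000 to under 2500 bp it was 109 (100.01 to 117) and 226 (210.2 to 239), and among those of 3000 to under 4000 bp it was 126 (113 to 142) and 274 (256 to 291). The rank correlation of the scores in the 5 width classes, from narrow to wide, was 0.27, 0.26, 0.32, 0.33 and 0.36. Holding the width of the DLX3 peak instead gave the same order: for DLX3 peaks of 1000 to under 1500 bp the medians were 113 (109 to 120) and 197 (173 to 218), and for those of 2000 to under 3000 bp they were 157 (135 to 179.7) and 271 (257 to 282). In these widths the intervals of the weakest and the strongest marks did not overlap. For DLX3 peaks of 400 to under 1000 bp they did, with medians of 96.0 (87.05 to 102) and 132 (91.6 to 213), the latter over only 22 regions.

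**Figure D2:**
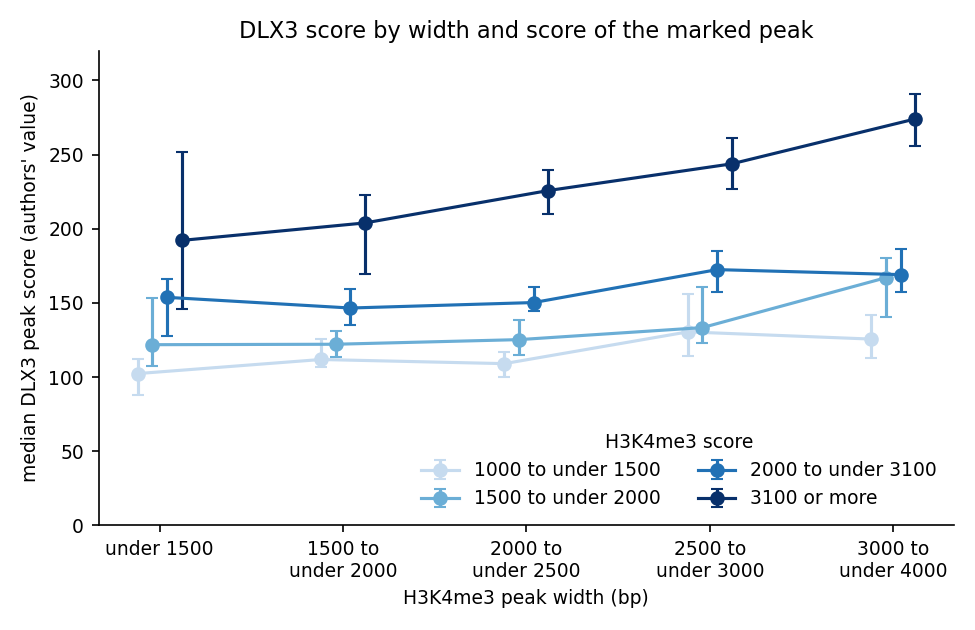
Median DLX3 score (vertical axis, authors' value) in 5 classes of H3K4me3 peak width in bp, with 1 line per class of H3K4me3 score; bars are 95% intervals of the median over peaks. The line of marks at 3100 or more lies above the others at every width, at 192 for marks under 1500 bp and 274 for those of 3000 bp or more.

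Up to a width of 2000 bp, DLX3 peaks of these regions also had higher scores than those of like width in the sets compared. These sets were single DLX3 peaks on marks scoring under 1000 and DLX3 peaks outside H3K4me3. From 400 to under 1000 bp the median score was 109.6 in the regions, 83.6 for single DLX3 peaks on marks scoring under 1000 and 72.4 for DLX3 peaks outside H3K4me3. Between 1000 and 1500 bp these medians were 139 (interval 135 to 145), 112 (108 to 117) and 93.4 (92.2 to 94.4). Between 1500 and 2000 bp they were 173, 143 and 122. Between 2000 and 3000 bp the regions had 210.4 (199.9 to 223), which overlapped the interval on weak marks (186 to 216) and lay above that outside the mark (165 to 176). From 3000 to under 4000 bp the medians were 271.9 in the regions, 294.6 on weak marks and 251 outside the mark. The value on weak marks was thus the highest. The 3 intervals overlapped (232 to 307 in the regions, 258 to 329 on weak marks, 238 to 268 outside the mark). Whether scores differed at these widths was not tested, and DLX3 peaks of 4000 bp or more were not compared.

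The width of the DLX3 peak followed that of the mark. The median DLX3 peak spanned 1529 bp (interval 1512 to 1550 bp, quartiles 1211 and 1963 bp), or 68.8% of the width of their marked peak (quartiles 56.7 and 80.6%). The median DLX3 width was 982 bp in marked peaks under 1500 bp, 1257 bp from 1500 to under 2000 bp, 1528 bp from 2000 to under 2500 bp, 1799 bp from 2500 to under 3000 bp and 2150 bp from 3000 to under 4000 bp. The part of the mark's width that the DLX3 peak reached fell from 77.4% for marks under 1500 bp to 63.4% for the widest. Spearman's rho between the widths was 0.66 over the 6775 regions and 0.52 over the 6785 weakly marked peaks with a single DLX3 peak, where the DLX3 peak measured 88.7% of the mark. With mark score, DLX3 width went from 1284 bp through 1371, 1496 and 1911 bp to 1573 bp above 3100.

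In most regions the DLX3 peak was nested in the mark. It lay wholly inside in 5775 of 6775 regions (85.2%, Wilson 84.4 to 86.1%), ran past 1 edge in 936 (13.8%) and covered the whole marked peak in 64 (0.945%). Where it ran past 1 edge, it did so by a median of 81.5 bp. If the midpoint of each DLX3 peak fell evenly over its own marked peak, with both widths kept, 31.4% would lie wholly inside by arithmetic, so nesting was 2.71 times as frequent. The ratio was 2.30 at mark scores from 1000 to under 1500, 2.46 from 1500 to under 2000, 2.70 from 2000 to under 3100, 3.44 at exactly 3100 and 2.98 above. The nested share over these classes was 80.4%, 83.1%, 87.1%, 88.0% and 88.1%. An even spread gives 34.9%, 33.8%, 32.2%, 25.6% and 29.5%. The higher ratio at exactly 3100 than in the class before it thus came mostly with the lower even-spread value. Among weakly marked peaks with a single DLX3 peak, 40.8% were nested where an even spread gives 18.4%, a ratio of 2.22. Among the 831 strong marks of 4000 bp or more with a single DLX3 peak, 77.3% were nested where an even spread gives 36.6%, a ratio of 2.11.

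The midpoints of the 2 peaks were close. Their median distance was 159.5 bp (interval 154.5 to 165.5 bp, quartiles 70.5 and 317 bp), and 33.9% of regions had them within 100 bp, 66.7% within 250 bp and 89.2% within 500 bp. The distance was 187 bp at mark scores from 1000 to under 1500, 176.5 bp from 1500 to under 2000, 156 bp from 2000 to under 3100, 137 bp at exactly 3100 and 148 bp above. With the regions split into 4 equal groups by DLX3 score, the median distance was 163 bp in the lowest group (interval 152.5 to 177.5 bp) and 157 bp in the highest (146 to 167.5 bp), and these intervals overlapped. Placed against the full length of the mark, 6518 DLX3 midpoints (96.2%) fell in the inner 50%.

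Among DLX3 peaks wholly inside the mark, most of this centring went when distances were scaled to the shift that their width allows. A DLX3 peak wholly inside its mark can shift only over the difference of the widths, here called the room, which had a median of 752 bp (quartiles 477 and 1127 bp). With the distance from the middle scaled to that room, an even spread puts 50% of midpoints in the inner 50% for any pair of widths. Observed were 3112 of 5775 (53.9%, Wilson 52.6 to 55.2%). The measure is taken over nested peaks alone. Nesting itself, 85.2% where an even spread over the mark gives 31.4%, keeps midpoints near the middle and is not part of the measure. The innermost of 10 equal bins held 10.6% and the outermost 7.45%, where an even spread gives 10% each, against 37.0% and 0.0444% when the same measure was scaled to the whole mark. Within the room the placement was thus close to even, with a shortfall at the very edge. Weakly marked peaks had 48.1% in the inner 50% (46.3 to 50.003%), and strong marks of 4000 bp or more had 41.7% (38.0 to 45.6%). Their median rooms were 476 and 2021 bp, and these shares were not matched on room. The regions themselves had 44.5% at rooms over 1500 to 2000 bp and 40.9% at rooms over 2000 bp.

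**Figure D3:**
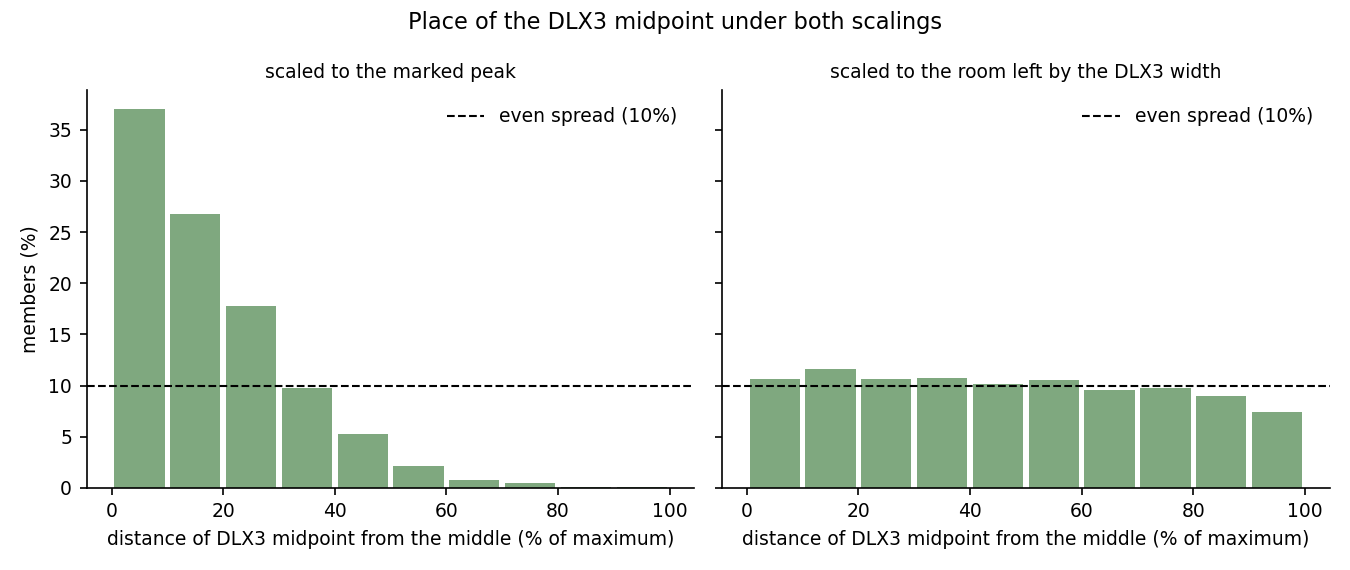
Share of regions (vertical axis, %) in 10 bins of the distance of the DLX3 midpoint from the middle of the H3K4me3 peak, scaled to the whole mark (left, midpoints inside the mark) or to the room left by the DLX3 width (right, DLX3 peaks wholly inside); the dashed line is an even spread. The innermost bin holds 37.0% on the left and 10.6% on the right.

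The inner share stood at 51.1% for mark scores from 1000 to under 1500 (Wilson 48.1 to 54.2%), 51.8% from 1500 to under 2000 (49.0 to 54.7%), 55.5% from 2000 to under 3100 (53.3 to 57.7%), 54.8% at exactly 3100 (52.2 to 57.4%) and 58.2% above (50.8 to 65.2%). In the 2 lowest classes the interval included 50%. Over the 4 groups of DLX3 score the share lay between 52.1% and 54.9%. It was 54.6% in the lowest group (52.02 to 57.1%) and 52.1% in the highest (49.5 to 54.7%), which overlap. Left and right on the chromosome were nearly alike, with 2959 midpoints to the left of the middle and 2811 to the right. The direction of transcription was not known for any region, so upstream and downstream cannot be told apart.

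The inner share did not change evenly with the room. It was 62.8% for rooms up to 250 bp (Wilson 58.2 to 67.1%), 42.8% for those over 250 to 500 bp (39.9 to 45.7%), 60.7% over 500 to 1000 bp (58.8 to 62.7%), 53.2% over 1000 to 1500 bp (50.3 to 56.0%), 44.5% over 1500 to 2000 bp (40.02 to 49.1%) and 40.9% over 2000 bp (34.1 to 48.04%). With much room, DLX3 peaks lay nearer to an edge than an even spread gives. The near-even total is thus a sum of classes on both sides of 50%.

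The gaps between the edges of the 2 peaks had 2 highs in their counts, and the one at larger gaps stood further above an even spread. Counting the left and right edge of all 6775 regions in steps of 50 bp, 1190 gaps measured 50 to under 100 bp, the fewest between the highs were 803 in a step from 150 to under 250 bp, and a further high of 907 stood at 300 to under 350 bp. Among the 11550 edges of nested DLX3 peaks, gaps of 300 to under 350 bp made up 7.39% where an even spread over each room gives 5.85%, and gaps of 350 to under 400 bp made up 7.12% against 5.31%. Gaps of 50 to under 100 bp made up 9.61% against 8.99%, and those under 50 bp 8.45% against 9.61%, so small gaps as a whole were not in excess. Gaps of 150 to under 200 bp were fewer than even, 6.47% against 7.51%, and so were those of 500 to under 550 bp, 3.21% against 3.82%. The step from 300 to under 350 bp held the larger-gap high in each of the 2nd, 3rd and 4th groups of DLX3 score, with 245, 218 and 231 gaps, and the lowest group had it at 350 to under 400 bp with 243. This high was sought only from 250 to under 450 bp. Over the 5 classes of mark score its step began at 350, 300, 250, 300 and 250 bp, so its place was not fixed. In the lowest class the step from 200 to under 250 bp held more gaps, 164 against 157. The same was seen at exactly 3100, with 243 against 239, and above 3100, with 30 against 28.

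Weakly marked peaks with a single DLX3 peak had most gaps at 0 to under 50 bp (1552), with 594 as the fewest from 150 to under 250 bp and 561 as the most from 250 to under 450 bp, so no second high was seen there. Of the nested regions, 407 (7.05%) had both gaps between 250 and 450 bp and 2361 (40.9%) had a single gap of that size. Both gaps under 100 bp were found in 183 (3.17%). A gap of 1000 bp or more on 1 side only was found in 947 (16.4%), and on both sides in 17. The edges of a called peak depend on the fragment length and the settings of the peak caller, which are not given in the sources used here, and their part in these gaps was not tested.

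**Figure D4:**
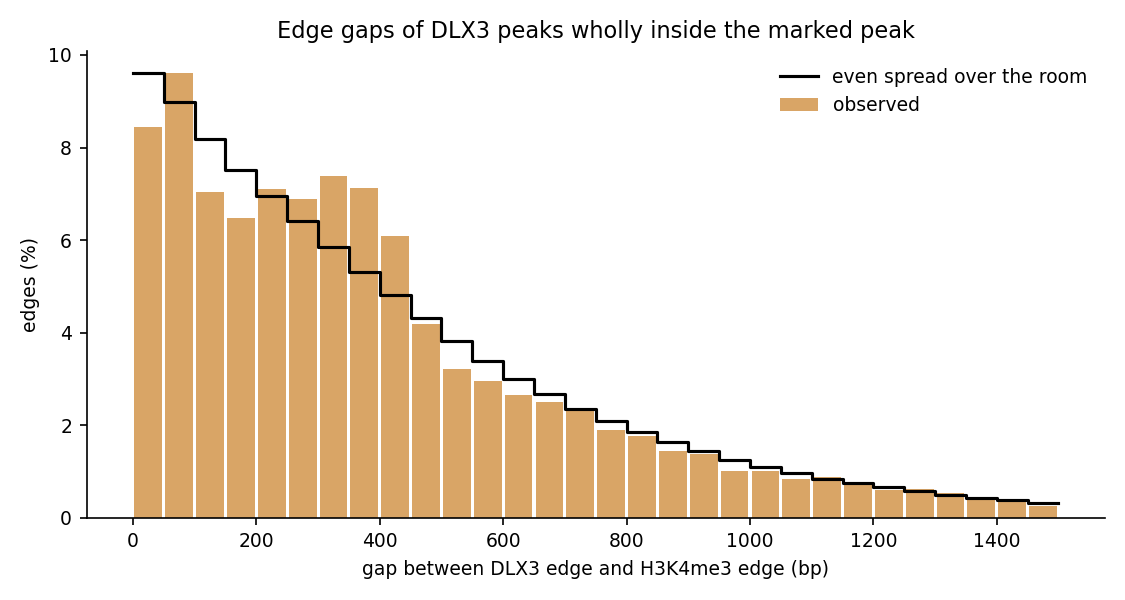
Gaps in bp between the edge of a nested DLX3 peak and the nearer edge on the same side of its H3K4me3 peak (horizontal axis, steps of 50 bp), as a share of 11550 edges (vertical axis, %), beside an even spread over the room (line). Bars stand above the line from 200 to 450 bp, with 7.39% against 5.85% in the step from 300 bp, and under it from 100 to 200 bp.

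Further DLX3 peaks around these strong promoters were counted next. The nearest other DLX3 peak that did not touch the mark lay at a median of 9006 bp (interval 8655 to 9346 bp), and 53.1% of regions had such a peak within 10000 bp (Wilson 51.9 to 54.3%). Over all H3K4me3 peaks the values were 6627 bp and 60.5%, and over weakly marked peaks with a single DLX3 peak they were 3928 bp and 73.5% (72.5 to 74.6%). Strong marks of 4000 bp or more with a single DLX3 peak had the next one at 3743 bp. Strong marks under 4000 bp without DLX3 had it at 11720 bp (interval 10597 to 13112 bp), farther off than the regions with a single peak. The rule asks for a single DLX3 peak on the mark, so part of this spacing comes with the choice.

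Fewer of the regions had a further DLX3 peak nearby where the mark was stronger. The share of regions with a further DLX3 peak within 10000 bp was 57.1% at mark scores from 1000 to under 1500 (54.4 to 59.8%), 55.3% from 1500 to under 2000, 52.7% from 2000 to under 3100, 48.9% at exactly 3100 (46.4 to 51.4%) and 49.3% above (42.4 to 56.1%). At least 3 such peaks within that distance were found in 13.7% of regions of the lowest class, 9.13% at exactly 3100 and 13.9% above 3100, so this measure did not set all of the strongest marks apart. Up to the score of 3100, the next H3K4me3 peak was also farther off with a stronger mark. The median was 12088 bp in the lowest class (10733 to 13510 bp) and 19734 bp at exactly 3100 (18039 to 21932 bp). Above 3100 it was 16669 bp (12691 to 23038 bp), an interval that overlapped both. The share with another H3K4me3 peak within 1000 bp showed no such order, with 12.7%, 11.3%, 11.1%, 13.0% and 13.9% over the classes. No DLX3 peak other than their own was found within 100000 bp of 232 regions (3.42%).

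The regions were spread over all chromosomes. On the autosomes, between 77.1% (chromosome 20) and 84.7% (chromosome 2) of the strong marks under 4000 bp held exactly 1 DLX3 peak, and on chromosome X 157 of 208 did (75.5%, Wilson 69.2 to 80.8%). The interval of X overlapped that of chromosome 20 (70.9 to 82.3%) and not that of chromosome 2 (81.5 to 87.4%). The median DLX3 score was highest on chromosomes 13 and 14, 196.8 (interval 167 to 210.3) and 196.3 (169.7 to 219). It was lowest on X, 136 (125 to 168), where the median mark score was also the lowest, 1719. Nesting ranged from 81.5% of regions on chromosome 12 to 89.9% on chromosome 11, and the inner share of the room from 49.6% on X to 59.6% on chromosome 4.

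The 5 regions with the highest DLX3 scores all carried marks scoring 2660 or more, and each DLX3 peak shared most of its length with the mark. The highest, 2606, was a DLX3 peak of 2950 bp in a marked peak of 3404 bp (chr10:94731868-94735271), with gaps of 105 and 349 bp. The next, 1952, was a DLX3 peak of 1863 bp in a mark of 2825 bp (chr5:53084561-53087385), with gaps of 679 and 283 bp. The DLX3 peak of score 1857 ran 15 bp past the left edge of its mark (chr7:77473900-77476497).

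The DLX3 peak of score 1837 filled all but 96 bp of a mark of 1608 bp (chr10:103709060-103710667), with gaps of 56 and 40 bp. That of score 1713 left gaps of 1314 and 591 bp in a mark of 3866 bp (chr17:45492186-45496051). The midpoints of these strongest DLX3 peaks lay from 8 to 361.5 bp from the middle, in marks of 1608 to 3866 bp. The gaps of the nested ones ran from 40 to 1314 bp.

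At the other end stood 5 regions with marks of exactly 3100 and the lowest DLX3 scores among the 1778 regions at 3100 or more, from 50.31 to 51.42, close to the lowest score in the DLX3 list. They were at chrX:115462464-115464834, chr13:49895997-49899111, chr8:58290854-58294326, chr10:28960507-28962527 and chr17:8886575-8889160. All of their DLX3 peaks were nested, with widths of 2055, 2356, 1037, 1138 and 1430 bp. The first and second were thus wider than the median DLX3 peak of these regions in spite of scores near the minimum.

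Some strong DLX3 peaks with room to shift lay in the middle and others at an edge. Among the 98 nested DLX3 peaks with a score of 500 or more and a room of 1000 bp or more, the most central were in marks of 3401 bp (chr6:134301056-134304456), 3455 bp (chr4:56815719-56819173) and 3137 bp (chr9:100539877-100543013), with midpoints 51, 55 and 80.5 bp from the middle. The least central had gaps of 1193 and 5 bp (chr2:211001417-211004994), 1390 and 22 bp (chr8:114983094-114986240) and 34 and 1792 bp (chr5:111298617-111301592). Their DLX3 scores were 819.5, 513 and 671, beside 511, 533 and 523 for the central ones, so the ranges overlapped.

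The widest DLX3 peaks reached far beyond the mark. A DLX3 peak of 8881 bp with a score of 611 reached past both edges of a mark of 3065 bp, by 2958 and 2858 bp (chr4:62125810-62128874). A DLX3 peak of 7228 bp with a score of 223 began 323 bp inside a mark of 2038 bp and ran 5513 bp beyond it (chr11:90600774-90602811). The other, of 7062 bp with a score of 327, covered a mark of 2127 bp and ran on for 4425 bp to the left (chr9:16010179-16012305). Their marks scored 1142, 1712 and 1524, all under the median of 2271.

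**Figure D5:**
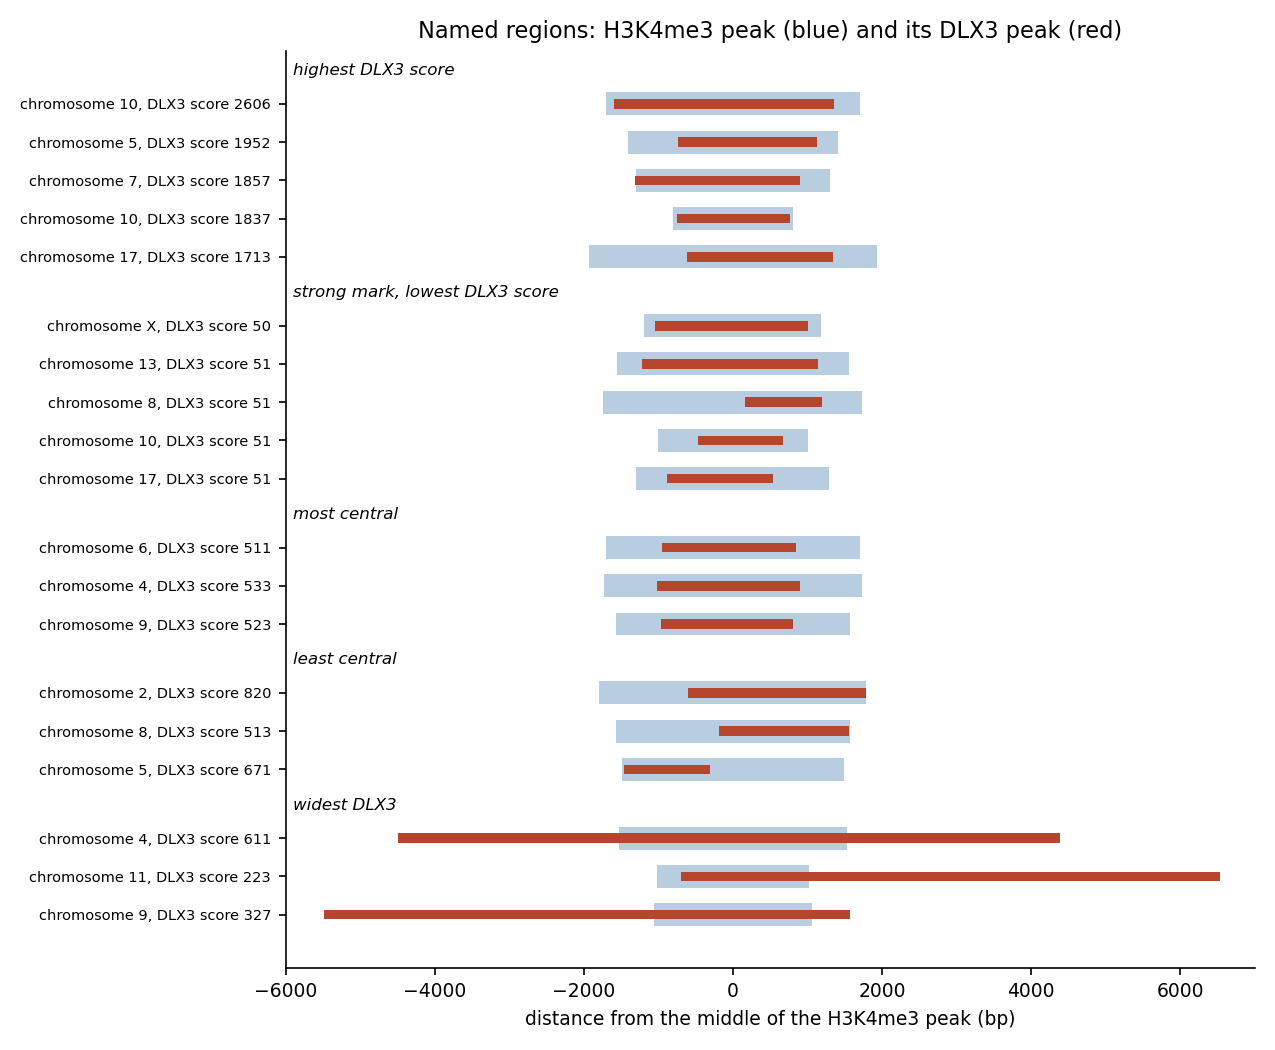
The named regions drawn to scale, with the H3K4me3 peak in blue and its DLX3 peak in red, against the distance in bp from the middle of the H3K4me3 peak. DLX3 peaks of the highest and the lowest scores both lie inside or nearly inside the mark, and the 3 widest reach 2958, 5513 and 4425 bp beyond it.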

How the data were processed

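DLX3 and H3K4me3 ChIP libraries of rat enamel organ were used as 1 deposited peak list each, and no file of the input library was analysed. The submitters' processing notes name MACS 1.4.2, Bowtie 1.1.2, HOMER and build rn5; filters, cutoffs and the use of the input are not given in the sources used here. Each list gives chromosome, start, end and the authors' score, by convention in this version of MACS a scaled −log10 p-value, which no header states. The lists hold no read counts, so depth is unknown and scores were not compared between lists. Positions are in rn5 with starts counted from 1.

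Overlaps of at least 1 bp, medians with exact binomial order-statistic 95% intervals and Wilson intervals were computed with Python 3.11.15, pandas 2.3.3, numpy 2.4.6 and scipy 1.17.1; bedtools 2.31.1 gave the same pairs. Even spreads are closed formulas in the 2 widths, with no random draw. Counting and placement were tested on simulated data. The named positions are the 5 highest and, at marks of 3100 or more, the 5 lowest DLX3 scores, the 3 widest DLX3 peaks, the 3 most and 3 least central ones with a room of 1000 bp or more and a DLX3 score of 500 or more, and those at the limits. The rule for the regions and all classes were chosen with earlier results of these data known; the edge gaps, score groups and neighbour distances were added after the lists were seen. Settings tried in other ways were the limits of score and width, the overlap, joined or stronger DLX3 peaks, and leaving out tied scores or chromosome X.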

Additional observations from a re-analysis of the deposited data

How the results depend on the processing

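Of 75 values under 15 other settings, 44 stayed within their interval, 31 moved and none reversed. For the number of regions the limit was 1.5 times. The cause of the moves was not tested, and some settings themselves change the choice of regions. With a mark score minimum of 2000, 4078 regions were left; the share with exactly 1 DLX3 peak was 88.3%, the median DLX3 score 190.4, its width 1656 bp, the score difference between the strongest and weakest marks 81.9 (in place of 126.5), the nested share 87.5% and the inner share of the room 55.4%. With a minimum of 500, the share was 75.3%, the score 149.8, the width 1496 bp and the nested share 82.9%. Marks under 3000 bp gave a score of 151, a width of 1421 bp and an inner share of 55.7%; marks under 5000 bp gave a share of 79.8% and a width of 1574 bp. DLX3 peaks scoring 100 or more gave a share of 62.7%, a score of 203, a width of 1591 bp and a difference of 92.3. Joining DLX3 peaks within 200 bp gave 83.8%, 1556 bp and a nested share of 84.1%. Leaving out marks of exactly 3100 gave 78.2%, a score of 138.9, a width of 1415 bp and a difference of 86.5. The difference was 91.4 in marks of 1000 to 2000 bp and 103 for DLX3 peaks of 1000 to 2000 bp. The inner share was 56.0% with a room of 500 bp or more and 96.2% when scaled to the whole mark. Requiring 50% of the DLX3 peak or its midpoint on the mark, or leaving out chromosome X, moved none of the 7 values. No paired analysis was possible because each antibody has a single library, which also leaves none to omit. The depth behind the lists is not known, and a mark without a listed DLX3 peak may have lacked reads.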

Other observations

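A few regions share a DLX3 peak with another marked peak, so their values are not separate. This held for 24 of the 6775 regions, whose DLX3 peak also touched another H3K4me3 peak. In 1 case both marks were among the regions: a DLX3 peak of 5514 bp with a score of 98.8 on chromosome 7 joined marks of 3189 bp (chr7:123555041-123558229) and 2277 bp (chr7:123558271-123560547). The narrowest of the regions, a mark of 548 bp with a score of 1576 (chr16:74144271-74144818), was nearly filled by a DLX3 peak of 436 bp with a score of 147, with gaps of 62 and 50 bp. Among the 64 regions whose DLX3 peak covered the whole mark, the highest DLX3 score was 1136, in a peak of 4359 bp over a mark of 2993 bp (chr15:55987659-55990651). These positions were chosen after their values were seen.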
